A study of Mus musculus with 6 samples.

Results

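The CpGs described here were less methylated in both kinds of induced pluripotent stem cell (iPSC) than in mouse embryonic stem cells (mESCs). The reads of the 2 replicates of each cell type were summed at every autosomal CpG with at least 10 summed reads in each type, the methylation level was taken as methylated over all reads, and members were chosen by these levels: a CpG was kept when its level lay more than 20 percentage points below the mESC level in both C-iPSCs and 4F-iPSCs. This left 577 of 1073684 compared CpGs, or 0.0537%. Of the 389192 CpGs with a level above 20% in mESCs, the only ones that could have met the rule, 0.148% did. The opposite pattern, a level more than 20 points above mESCs in both iPSC types, was found at 155483 CpGs (14.5%), 269 for every member. The members made up 20.4% of the 2822 CpGs that passed the same limit in C-iPSCs and 34.3% of the 1683 that passed it in 4F-iPSCs.

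Reduced representation bisulfite sequencing (RRBS), which reads cytosine methylation next to MspI sites, was done on 2 libraries of each of 3 cell types. C-iPSCs were made from OG2-MEFs, mouse embryonic fibroblasts in which green fluorescence reports Oct4 expression, with cocktails of small molecules. 4F-iPSCs were made from OG2-MEFs with retroviruses carrying Oct4, Sox2, Klf4 and c-Myc. The fibroblasts came from 129S4/SvJaeJ, C57BL/6J and CBA/CaJ mice, the mESCs were the established line E14, and all lines were male. The iPSCs were at passages 5 to 10 and the mESCs at passages 20 to 30. All 3 cell types grew in medium with LIF and 2i, a pair of kinase inhibitors, on feeder fibroblasts removed before collection according to the sample labels, whereas the study's methods name gelatin-coated plates. Leftover fibroblasts were not tested for. Strain, line, passage and cell type cannot be told apart in a comparison of iPSCs with E14 cells. Nothing states that replicates were separate cultures, so p-values measure only the spread between these libraries. The libraries held between 53694199 and 96534037 CpG read counts, with a median of 31 to 54 reads per covered CpG.

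In mammals a methyl group on the cytosine of a CpG is written by the enzymes Dnmt3a and Dnmt3b and copied at each cell division by Dnmt1, which Uhrf1 brings to newly copied DNA. Culture with 2i lowers methylation across the genome of mESCs. CpG-dense promoters and CpG islands are usually free of methylation, while imprinted regions and some repeats tend to keep it where other sequence loses it. LINE-1 retrotransposons are repeats whose promoters in the mouse are built of tandem units. The CpGs below are therefore of interest as places where the iPSCs held less methylation than the reference line, against the direction seen at most compared CpGs.

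The sequences of 6 regions that carry most of the leading members are shown 5′ to 3′ on the plus strand of GRCm38 (mm10), taken from RefSeq, with the member CpGs in capitals and all other bases, including CpGs that were not members or had too few reads, in lower case. The first lies between genes, 18279 bp from the nearest start, that of Pip4p2, and holds 11 members.
chr4:14845613-14845809: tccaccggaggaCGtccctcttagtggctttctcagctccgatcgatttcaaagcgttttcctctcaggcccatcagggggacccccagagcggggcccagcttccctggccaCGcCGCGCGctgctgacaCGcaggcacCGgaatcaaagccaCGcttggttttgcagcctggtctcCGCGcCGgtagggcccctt
The second lies between genes, 14209 bp from the start of Fcgr3, an antibody receptor gene, and holds 5 members.
chr1:171045117-171045206: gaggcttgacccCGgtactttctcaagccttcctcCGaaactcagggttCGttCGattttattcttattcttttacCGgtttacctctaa
The third lies in an intron of Camk2b, which encodes a calcium-dependent kinase of neurons, and holds 5.
chr11:6007110-6007249: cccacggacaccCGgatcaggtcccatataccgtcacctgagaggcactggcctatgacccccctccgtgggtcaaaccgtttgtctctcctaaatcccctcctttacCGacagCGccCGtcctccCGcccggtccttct
The fourth lies in the promoter of Zfp872, a zinc finger gene, and holds 5.
chr9:22188443-22188565: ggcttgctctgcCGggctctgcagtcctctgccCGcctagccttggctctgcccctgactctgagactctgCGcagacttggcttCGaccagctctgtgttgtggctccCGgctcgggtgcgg
The fifth lies in an intron of Enox1 and the sixth between genes on chromosome 1, 50132 bp from the start of Gm38238. They hold 6 and 5 members, and both contain parts of a tandem repeat unit described below.
chr14:77299653-77299758: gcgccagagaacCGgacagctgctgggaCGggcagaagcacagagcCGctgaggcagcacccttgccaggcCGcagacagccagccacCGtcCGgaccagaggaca
chr1:152242169-152242408: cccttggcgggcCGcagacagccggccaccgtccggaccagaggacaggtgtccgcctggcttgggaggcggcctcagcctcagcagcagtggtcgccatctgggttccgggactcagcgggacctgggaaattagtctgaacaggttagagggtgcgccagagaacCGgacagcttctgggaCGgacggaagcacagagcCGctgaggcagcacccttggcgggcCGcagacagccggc

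The members were partly methylated in mESCs and kept some methylation in the iPSCs. Over the 577 members the median level was 52.0% in mESCs (interquartile range 40.0 to 70.0), 20.5% in 4F-iPSCs (10.5 to 33.6) and 23.5% in C-iPSCs (11.1 to 38.1). These values chose the members and are given as a description. A level of at least 80% in mESCs was found at 69 members, 469 lay from 30% up to 80%, and 39 lay under 30%. The smaller of the 2 differences from mESCs had a median of 23.9 points and reached 53.3 points. It was above 30 points at 112 members and above 40 points at 30.

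Just inside the threshold, a CpG on chromosome 6 had levels of 33.9% in mESCs, 13.9% in 4F-iPSCs and 9.38% in C-iPSCs, a smaller difference of 20.0 points. Just outside, a CpG on chromosome 10 had levels of 53.3%, 28.3% and 33.3% and a smaller difference of exactly 20 points. The smaller difference was at most 22 points at 170 members, and it lay above 18 and at most 20 points at 243 CpGs that were not members. The members thus crowd toward the threshold.

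Mean levels in each library were taken over the 257 members with at least 10 reads in all 6 libraries. The mean was 59.3% and 59.8% in the mESC libraries, 28.1% and 36.1% in the C-iPSC libraries and 22.4% and 29.2% in the 4F-iPSC libraries. Replicate 1 was lower than replicate 2 in both iPSC types, while the mESC libraries nearly coincided. Every iPSC library was below every mESC library at 238 of these 257 members, against 1.63% of all 934415 CpGs read at that depth, a contrast that the rule itself used. At the 325987 other CpGs above 20% in mESCs the order was the reverse, with 50.3% and 55.5% in mESCs, 78.9% and 80.3% in 4F-iPSCs and 63.6% and 73.6% in C-iPSCs.

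**Figure D1:**
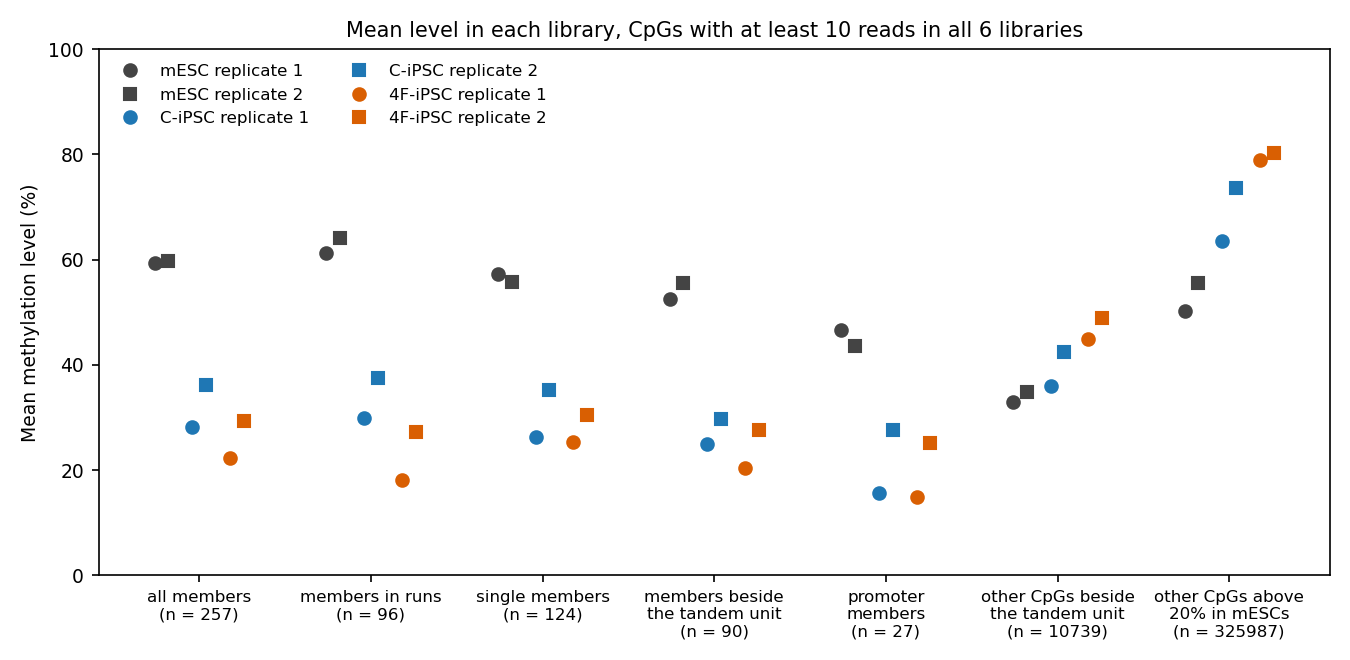
Mean methylation level (%) in each of the 6 libraries for groups of CpGs with at least 10 reads in all 6 libraries, with circles for replicate 1, squares for replicate 2 and the number of CpGs under each group. The member groups were chosen to be lower in iPSCs, whereas the other CpGs beside the tandem unit rose from 33.0% and 34.9% in mESCs to 44.9% and 49.0% in 4F-iPSCs.

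Depth moved with membership. The median number of summed mESC reads was 26 at the members and 85 at all CpGs above 20% in mESCs, and 212 members (36.7%) had fewer than 20 mESC reads against 6.57% of those CpGs. The share of compared CpGs that met the rule fell from 0.0537% at 10 reads per cell type to 0.0330% at 20 reads, 0.0259% at 30 reads and 0.0220% at 50 reads. The 50-read limit left 178 members. How much of the list comes from counting error alone was not tested.

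The replicates allowed a reading that the choice had not used. Choosing in the replicate 1 libraries alone gave 2029 CpGs (0.217% of 934415), and 99 of them (4.88%, Wilson 95% interval 4.02 to 5.90) met the rule in the replicate 2 libraries, against 0.118% of CpGs above 20% in mESC replicate 1. Both iPSC libraries lay below mESCs by any amount in replicate 2 at 20.5% of the chosen CpGs, against 2.22% of the same background. The median difference read in replicate 2 was 4.26 points higher in C-iPSCs than in mESCs and 9.95 points higher in 4F-iPSCs, so at the median CpG the loss seen in replicate 1 was not seen again. Choosing in replicate 2 gave 565 CpGs (0.0605%). Of these, 17.5% (14.6 to 20.9) met the rule in replicate 1 against 0.278% of the background, 55.4% were lower in both iPSC types against 3.99%, and the median difference kept its direction at 8.22 points below mESCs in C-iPSCs and 6.43 points below in 4F-iPSCs. These intervals cover counting error only.

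A stricter core used the same contrast as the rule, so its CpGs are members by construction and are only described. At 62 CpGs each of the 4 iPSC libraries lay more than 20 points below each mESC library, 0.00664% of the CpGs with 10 reads in all 6 libraries. Of these, 36 were in runs, 10 in pairs and 16 stood alone. By place, 39 were intergenic, 20 intronic, 2 in promoters and 1 in an exon. None was near 0 in both iPSC types, and 43 kept at least 10% in both.

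The members fell into 444 clusters when those at most 300 bp apart were joined. There were 376 single CpGs (65.2% of members), 37 pairs and 31 runs of at least 3 members that together held 127 of the members. The runs held 11, 9 and 6 members once each, 5 members 7 times, 4 members 3 times and 3 members 18 times, and spanned 7 to 536 bp with a median of 112 bp. Run members were read more deeply than single members, with a median of 98 against 21 mESC reads. Their median levels were 59.9% in mESCs, 18.5% in 4F-iPSCs and 29.5% in C-iPSCs, and those of single members were 50%, 20.7% and 20.6%. In all 31 runs every iPSC library lay below every mESC library, a contrast that the rule used (background 1.63% of single CpGs), so that nothing is read from it. Only 9 of the runs had no other compared CpG between their members.

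The run near Pip4p2, on chromosome 4 from 14845625 to 14845797, was the longest by members, and all 11 compared CpGs in it met the rule. Over their summed reads the level was 69.4% and 74.7% in the mESC libraries, 40.8% and 43.7% in the C-iPSC libraries and 8.7% and 9.8% in the 4F-iPSC libraries. The 3 cell types did not overlap, and each pair of replicates lay closer together than any pair of cell types. Both strands gave similar values, with 72.0% and 72.8% in mESCs, 9.1% and 9.3% in 4F-iPSCs and 42.7% and 41.7% in C-iPSCs on the plus and the minus strand.

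The run near Fcgr3, on chromosome 1 from 171045129 to 171045194, had the deepest coverage of the leading runs, with a median of 353 mESC reads per CpG, and all 5 compared CpGs in it were members. The level was 69.5% and 74.5% in mESCs, 5.3% and 8.2% in 4F-iPSCs and 36.1% and 45.5% in C-iPSCs. The median CpG had 70.0% in mESCs, 2.0% in 4F-iPSCs and 39.5% in C-iPSCs. This repeated the order of the run near Pip4p2.

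The run on chromosome 16 from 32200599 to 32201134, 14413 bp from the start of Bex6, held 9 members among 14 compared CpGs and split the 4F-iPSC libraries. The mESC libraries had 79.3% and 85.6% and the C-iPSC libraries 43.1% and 59.9%, with 6.4% in 4F-iPSC replicate 1 against 67.5% in 4F-iPSC replicate 2. The cell-type level for 4F-iPSCs at this run is thus a mean of a nearly unmethylated and a mostly methylated library. The 5 compared CpGs within 1 kb of this run, all on the same side, had medians of 81.9% in mESCs, 93.3% in 4F-iPSCs and 89.0% in C-iPSCs. At these 5 the replicate 1 library of 4F-iPSCs had fewer than 10 reads, so the value rests on replicate 2 and the split between the libraries cannot be followed there. Most runs differed from this one in their flanks. Of the 26 runs with compared CpGs within 1 kb, 18 had flank medians lower than mESCs in both iPSC types. Some flanks held members themselves, as around the run in Camk2b, and these were chosen to be lower. Among single compared CpGs, with a median mESC level of 7.14%, 13.9% were lower in both. That is a different measure from a flank median, so the 2 values are only a description.

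**Figure D2:**
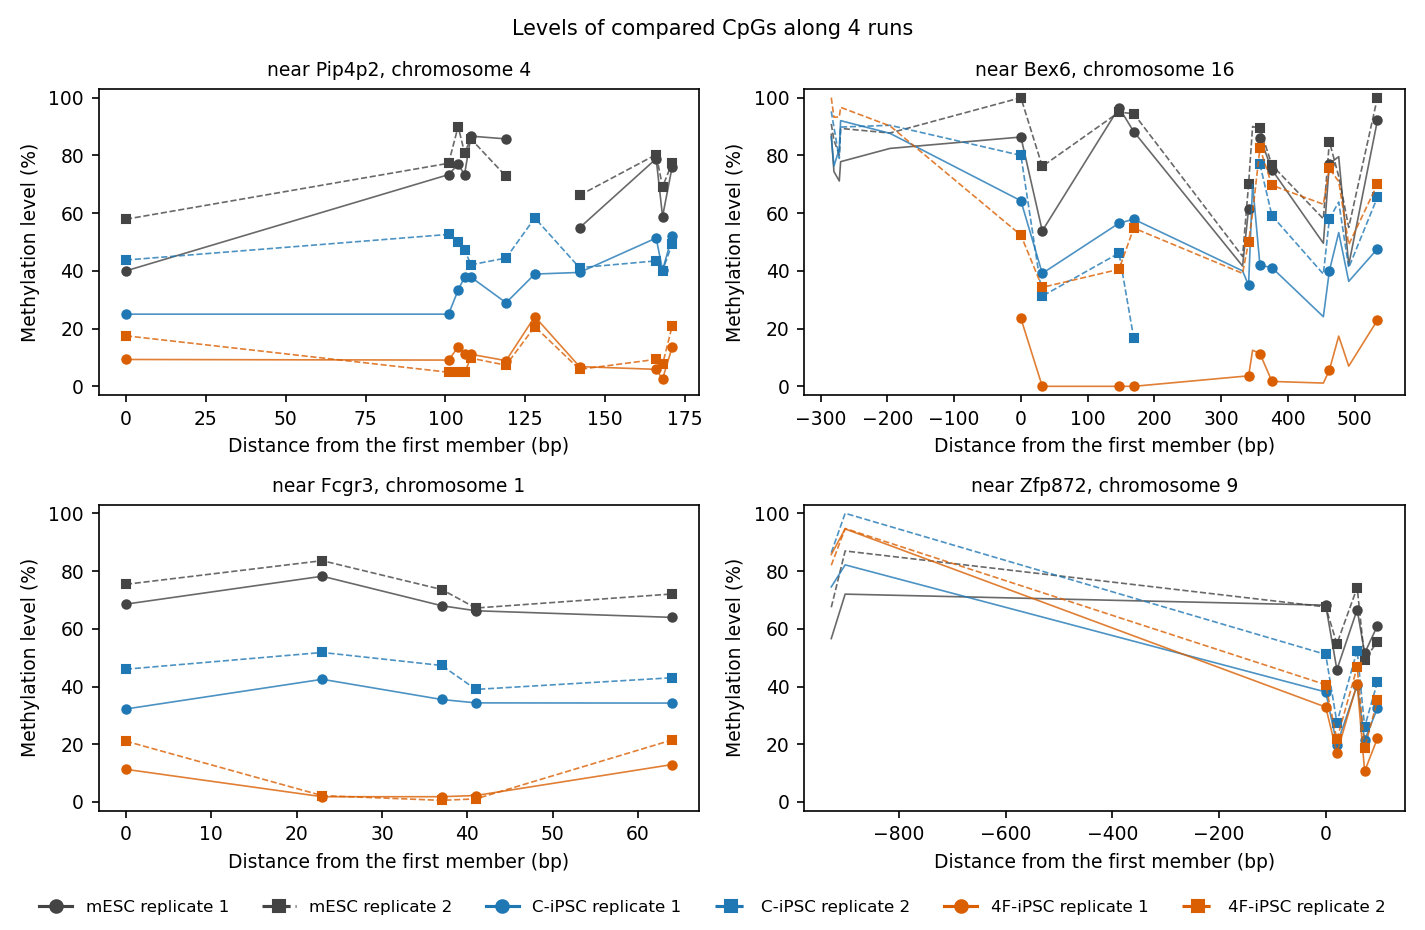
Methylation level (%) of each compared CpG with at least 10 reads in the library, against its distance in bp from the first member of the run, for 4 runs. Symbols mark members, lines join neighbouring compared CpGs, solid lines and circles are replicate 1, and dashed lines and squares are replicate 2. Both 4F-iPSC libraries lie lowest along the runs near Pip4p2 and Fcgr3, and they separate along the run near Bex6, at 6.4% and 67.5% over its members.

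The run in an intron of Camk2b, on chromosome 11 from 6007122 to 6007237, had 81.0% and 77.99% in mESCs, 30.2% and 44.6% in 4F-iPSCs and 38.0% and 55.4% in C-iPSCs. The iPSC types overlapped there, and the strands were unequal in depth and level. In mESCs the plus strand had 50 reads at 64.0% and the minus strand 511 at 81.4%, while C-iPSCs had 245 at 20.8% and 582 at 56.4%. The run in the promoter of Zfp872, on chromosome 9 from 22188455 to 22188553 and 287 bp from a transcript start, had 56.9% and 60.1% in mESCs, 24.0% and 31.2% in 4F-iPSCs and 29.2% and 37.8% in C-iPSCs. All 5 of its compared CpGs were members. The 2 compared CpGs within 1 kb had medians of 70.3% in mESCs, 89.4% in 4F-iPSCs and 85.3% in C-iPSCs. Around the run in Camk2b the flanks went the other way. The 6 compared CpGs within 1 kb there, some of them members, had medians of 76.3%, 46.3% and 58.7% in the same order. A run 868 bp from the start of E030030I06Rik, on chromosome 10 from 22150138 to 22150405, held 5 members among 11 compared CpGs, with 30.4% and 42.4% in mESCs, 6.5% and 8.6% in 4F-iPSCs and 8.4% and 25.3% in C-iPSCs. It was the only run with CpGs near 0 in both iPSC types.

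Of the other leading runs, those in introns of Enox1 and Gm29141 and those near Gm38238 and Rpe65 all lay beside the tandem unit. Their levels were between 39.1% and 56.4% in the mESC libraries, between 12.1% and 24.7% in the C-iPSC libraries and between 8.5% and 18.04% in the 4F-iPSC libraries. The iPSC types overlapped in the run in Enox1. The other 21 runs held 3 or 4 members each. Low levels were met in a run on chromosome 4 beside the tandem unit, 21046 bp from the start of Gm25687, with 20.5% and 48.1% in mESCs, 7.6% and 7.4% in 4F-iPSCs and 3.8% and 8.2% in C-iPSCs. The mESC libraries lay above all iPSC libraries there, and the iPSC types overlapped. A run of 3 members beside Syde2 on chromosome 3, from 145978128 to 145978155, kept the order of the run near Pip4p2, with 79.0% and 82.4% in mESCs, 13.3% and 14.9% in 4F-iPSCs and 31.7% and 52.8% in C-iPSCs.

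**Figure D3:**
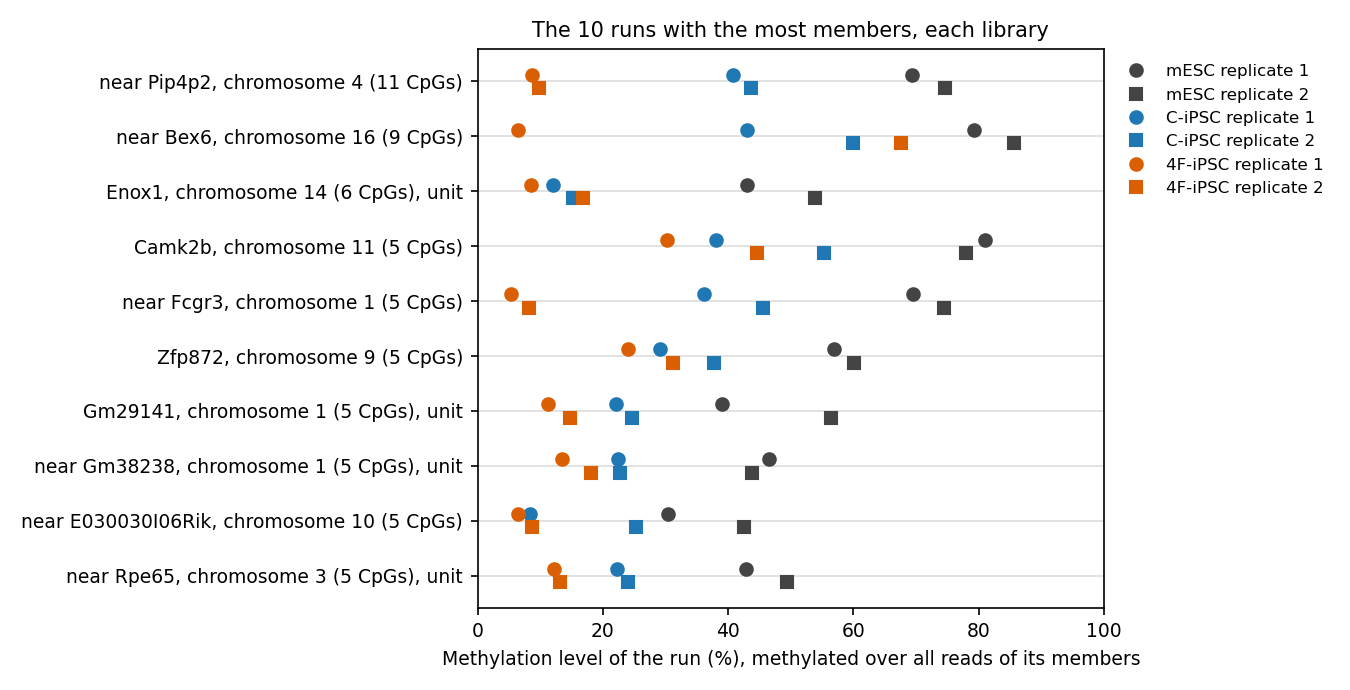
Methylation level (%) of the 10 runs with the most members, as methylated over all reads of the members, in each library (circles replicate 1, squares replicate 2, grey mESCs, blue C-iPSCs, orange 4F-iPSCs). The word unit marks runs beside the tandem repeat unit, and in each run both mESC libraries lie to the right of all 4 iPSC libraries.

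The neighbours of single members were lower more often than other CpGs, although most were not lower in both iPSC types. Of the 376, 317 had another compared CpG within 50 bp, and the nearest was lower than mESCs in both iPSC types at 111 (35.0%) and lower by more than 10 points in both at 39. Among all compared CpGs 13.9% were lower in both by any amount and 3866 of 1073684 by more than 10 points, and among those above 20% in mESCs 3.70% were lower in both. The nearest neighbour had a median level of 18.9% in mESCs, well below that of the members, and a median difference of 0 points in each iPSC type. It was higher than mESCs in both iPSC types at 78 of the 317, against 559220 of 1073684 compared CpGs. A neighbour within 50 bp may share reads with the member, so the choice of the member may act on its neighbour. How far it does was not tested.

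By the rule for named CpGs, the 10 single members with the largest smaller difference had at least 20 reads in each cell type. The largest, on chromosome 2 at 39517867 between genes, 7487 bp from the start of Gm13454, had 78.3% of 46 reads in mESCs, 8.5% of 47 in 4F-iPSCs and 29.2% of 48 in C-iPSCs. Its library levels were 77.1% and 81.8% in mESCs, 13.04% and 4.2% in 4F-iPSCs and 20.0% and 35.7% in C-iPSCs, and the 3 cell types did not overlap. The next, in an exon of Tmem132c on chromosome 5 at 127360124, had 51.4% of 72 reads in mESCs, 5.4% of 37 in C-iPSCs, and 0 of 63 in 4F-iPSCs, which allows up to 4.76% there. Its reads were spread unevenly over the strands, with 36 on each strand in mESCs but 2 on the plus and 35 on the minus strand in C-iPSCs, while 4F-iPSCs had 1 and 62.

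The 8 others were in introns of Mapk10, a stress-activated kinase gene, Sgcd, which encodes a sarcoglycan of muscle membranes, Nkain3 and Gm5535, and between genes near Gm23036, Agpat4, Hnf4g and Gm28591. Their mESC levels ran from 66.7% to 90.1% and their levels in either iPSC type from 8.3% to 52.4%. The CpG near Gm23036 had the deepest mESC coverage of the 10, with 90.1% of 111 reads in mESCs, 48.1% of 133 in 4F-iPSCs and 52.4% of 105 in C-iPSCs. The CpGs in Sgcd and Nkain3 and the CpG near Gm28591 lay beside the tandem unit.

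The uneven strands at the CpG in Tmem132c were met elsewhere. At 47 members (8.15%) the plus-strand share of the reads in mESCs lay more than 20 points from that in both iPSC types, on the same side, against 1.11% of CpGs above 20% in mESCs. The share was 14.1% beside the tandem unit and 5.19% outside it. The part of this shift in the methylation differences was not tested, and sequence differences between the strains and E14 were not analysed here. Of the 97 members with at least 10 reads on each strand in each cell type, 88 were lower in both iPSC types on both strands and 43 met the rule on each strand by itself. The reads of the strands together gave the levels that chose the members, so these counts are a description.

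Loss to near 0 was rare. Only 16 members (2.77%) had a level under 5% in both iPSC types, 397 (68.8%) kept at least 10% in both, and 164 lay between. Of the 16, 14 were single CpGs and 2 belonged to the run near E030030I06Rik. None of these 16 exceeded 31.0% in mESCs, with a median of 25% (interquartile range 22.6 to 27.7) on a median of 21.5 reads. By place, 7 were in promoters, 4 in introns, 3 between genes and 2 in exons, and their surroundings held a median of 31.5 CpGs in 500 bp.

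The best-read of them, in an exon of 2810410L24Rik on chromosome 11 at 120187498, had 23.8% of 181 reads in mESCs (Wilson 95% interval 18.1 to 30.5), 1.94% of 155 in 4F-iPSCs and 2.86% of 210 in C-iPSCs. Its library levels were 22.8% and 24.7% in mESCs, 1.1% and 3.3% in 4F-iPSCs and 2.7% and 3.1% in C-iPSCs. Both mESC libraries lay above all iPSC libraries, as the rule favours, and the iPSC types overlapped. The methylated reads were all on the minus strand, 43 of 155 there in mESCs, 3 of 112 in 4F-iPSCs and 6 of 154 in C-iPSCs, while the plus strand had none of 26, 43 and 56 reads. Its 42 bases are shown with the member in capitals, because it is the only member near 0 with over 100 reads in each cell type.
chr11:120187478-120187519: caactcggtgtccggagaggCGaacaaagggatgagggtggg
The others rested on 10 to 44 mESC reads. The CpG 17 bp from the start of Npat, a regulator of histone genes, had 25% of 12 reads in mESCs (8.9 to 53.2), 0 of 14 in C-iPSCs, which allows up to 21.4%, and 0 of 20 in 4F-iPSCs, which allows up to 15.0%. The CpGs in the promoters of Rbpms, Crtap, Smpd5 and Clec16a had 21.1% to 30.0% in mESCs and at most 3.23% in either iPSC type. At the CpG in the promoter of Rbpms, mESC replicate 1 was itself at 0 of 2 reads and replicate 2 at 37.5% of 8.

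Members lay in denser CpG sequence than other CpGs above 20% in mESCs, but not than all compared CpGs. Their surroundings held a median of 22 CpGs in 500 bp (interquartile range 16 to 30), against 11 (7 to 15) for CpGs above 20% in mESCs and 30 (12 to 51) for all compared CpGs. Outside the tandem unit, the share of CpGs above 20% in mESCs that were members was 0.0411% with under 10 CpGs in 500 bp, 0.0614% with 10 to 19, 0.272% with 20 to 29 and 1.04% with 30 or more. Promoters, within 1 kb of a transcript start, held 129 members (22.4%), against 8.38% of CpGs above 20% in mESCs and 52.8% of all compared CpGs. Of the 129 promoter members, 27 had at least 10 reads in all 6 libraries, against 257 of all 577 members. In the stricter core 2 of 62 CpGs were in promoters. The shares by density and place were not repeated at a higher read limit, and the part of depth in them was not tested. Introns held 145, exons 30, 3′ untranslated regions 2, and 271 were intergenic.

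The 129 promoter members were nearest to the starts of 116 genes, and 110 of them were single CpGs. The 27 with 10 reads in all libraries had mean levels of 46.7% and 43.7% in mESCs, 14.8% and 25.1% in 4F-iPSCs and 15.7% and 27.6% in C-iPSCs. The iPSC types overlapped. The largest smaller differences were at CpGs near the starts of Nhsl1, with 63.6% of 11 mESC reads, and Soga1, with 58.3% of 12, so that these promoters were read thinly.

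**Figure D4:**
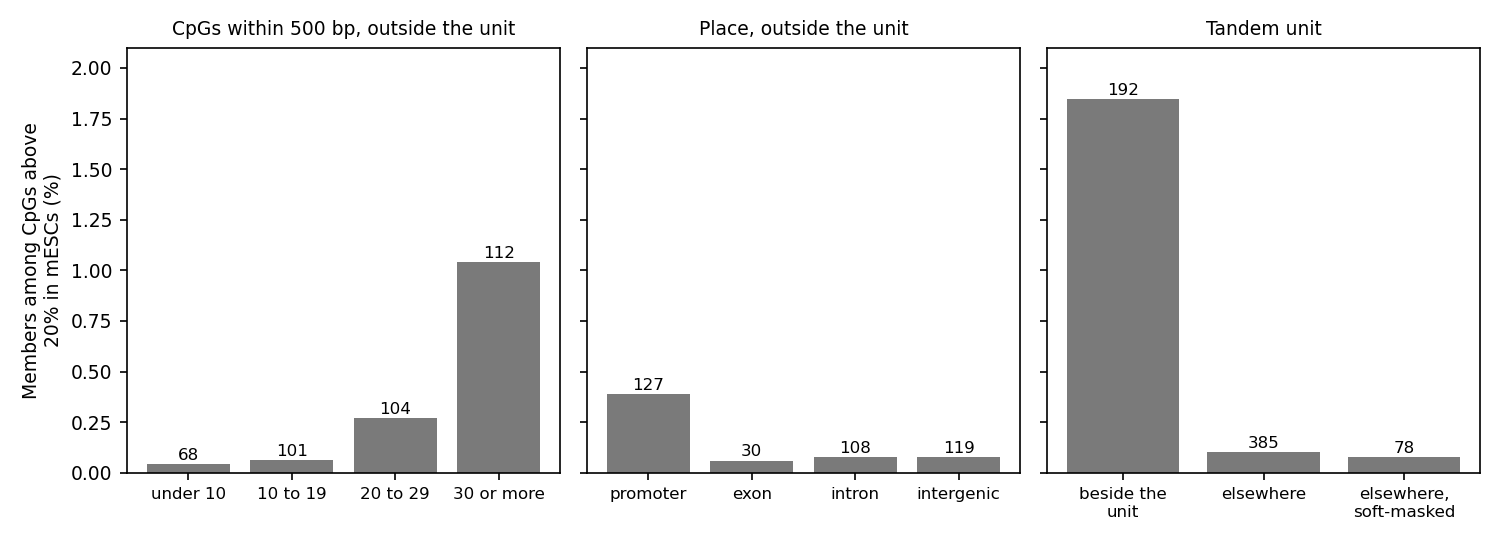
Share (%) of CpGs above 20% in mESCs that were members, with the number of members above each bar, by the number of CpGs in 500 bp, by place, and by the tandem unit. Outside the unit the share was 1.04% with 30 or more CpGs and 0.391% in promoters, and beside the unit it was 1.85%. The part of depth in the shares by density and place was not tested.

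Many members lay beside a tandem repeat unit. To find its copies, 2 stretches of 14 bases were read from the region near Gm38238, shown above, after the members had been seen, so that nothing about the unit was tested. They are ACCAGAGGACAGGT and, on the minus strand there, CCTGTTCAGACTAA. The stretches do not overlap each other. Searched on both strands of the autosomes, the first had 4691 exact matches and the second 7630. Of 1670 neighbouring matches of the first stretch on the same strand and under 300 bp apart, 1119 were 214 bp apart and 443 were 212 bp apart, which is the spacing of a head-to-tail repeat. Repeat classes were not used here, and the unit was not assigned to any.

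A match of either stretch began within 100 bp of 192 members (33.3%), against 2.67% of CpGs above 20% in mESCs, 1.57% of all compared CpGs and 0.977% of the CpGs with the opposite pattern. The first stretch alone was beside 27.0% of members and 2.08% of CpGs above 20% in mESCs, and the second beside 27.4% and 1.93%. The 192 members lay on all 19 autosomes in 136 clusters, 190 of them in lower-case repeat sequence of the reference, with 103 as single CpGs, 37 in pairs and 52 in 14 runs. By place, 152 were intergenic and 37 intronic.

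Among CpGs above 20% in mESCs, 1.85% of those beside the unit were members against 0.102% elsewhere and 0.0773% of the soft-masked ones elsewhere. With at least 30 reads in each cell type the shares were 1.10%, 0.0523% and 0.0537%. The first of these shares rests on 77 members. The opposite pattern was met by 9.05% beside the unit and 36.3% elsewhere.

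Members beside the unit had mean levels of 52.6% and 55.5% in mESCs, 20.4% and 27.6% in 4F-iPSCs and 24.9% and 29.6% in C-iPSCs over the 90 with 10 reads in all libraries. The 10739 other CpGs beside the unit at that depth went the other way, with 33.0% and 34.9% in mESCs, 44.9% and 49.0% in 4F-iPSCs and 36.0% and 42.4% in C-iPSCs. The mean of these other CpGs was 5.22 points higher in C-iPSCs than in mESCs and 12.97 points higher in 4F-iPSCs, with no overlap of the libraries. CpGs beside the unit outside the list were thus on average more methylated in both iPSC types. This direction was not particular to the unit. All 934158 compared CpGs outside the list at that depth had means of 20.7% in mESCs, 32.1% in 4F-iPSCs and 27.1% in C-iPSCs. Copies of a repeat are nearly alike, so reads placed to a single copy by unique mapping may come from another copy, and how far this touches the members was not tested.

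The separate replicates were also read for the unit. Its stretches were taken from members chosen on the reads of both replicates, so neither replicate was held out for the unit. The shares beside the unit and elsewhere are a description, and nothing is read from their contrast. Of 285 CpGs beside the unit chosen in replicate 1, 40 (14.04%, Wilson 95% interval 10.5 to 18.5) met the rule in replicate 2, against 1.93% of CpGs beside the unit above 20% in mESC replicate 1. Of the 1744 chosen elsewhere, 3.38% (2.63 to 4.34) did so, against 0.0772%. Chosen in replicate 2 and read in replicate 1, the shares were 25.6% against 3.46% beside the unit and 14.4% against 0.204% elsewhere.

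By position, counted from the first base of the first stretch along its strand, the share of compared CpGs that were members was 2.65% at 24 bases before it (24 of 907), 2.44% at 67 bases before it (12 of 492) and 0.16% at 58 bases after it (1 of 627), positions picked for their shares. The mean level at 24 bases before was 40.7% in mESCs, 49.2% in 4F-iPSCs and 42.6% in C-iPSCs. In mESCs the mean level was 20.0% at 67 bases before and 23.9% at 58 bases after. The median number of mESC reads was 46 at 24 bases before, 39 at 67 bases before and 53 at 58 bases after, and the part of level and depth in the shares was not tested.

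**Figure D5:**
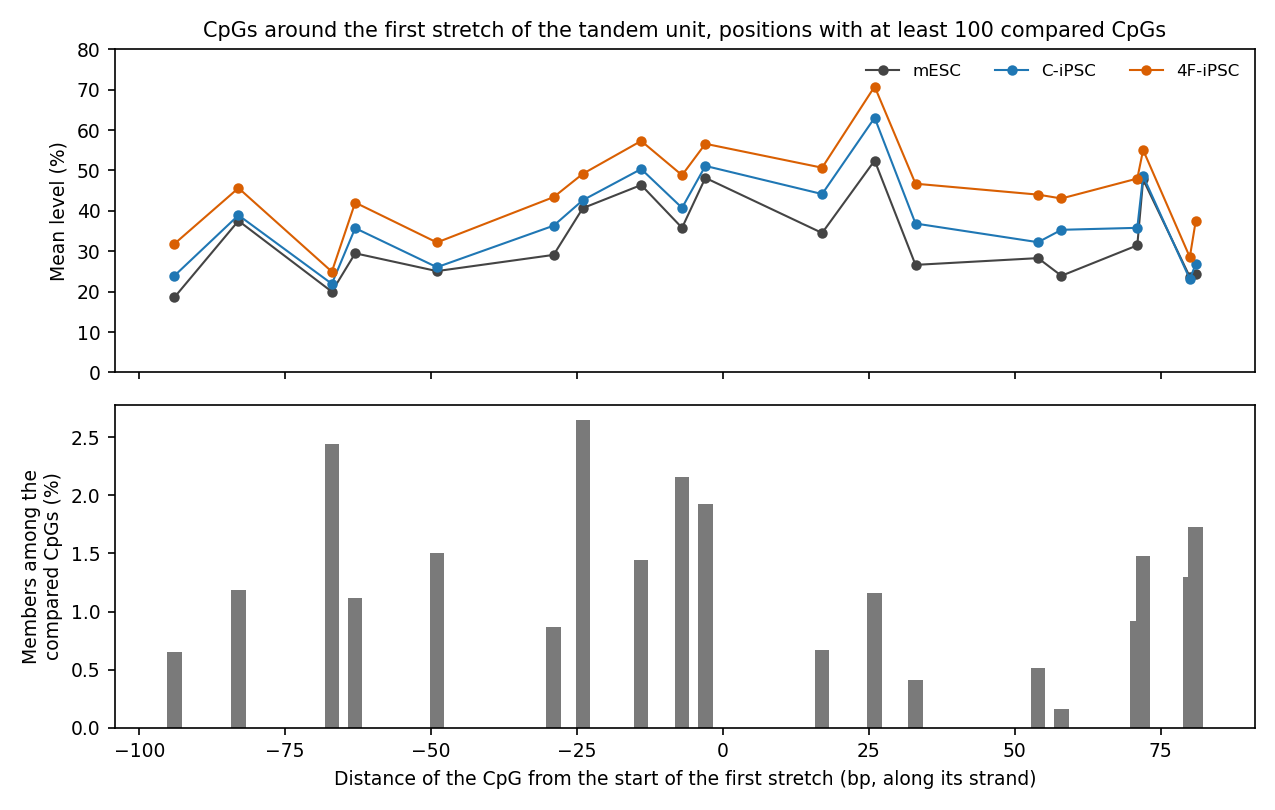
Upper panel, mean level (%) of compared CpGs by distance in bp from the first base of the first stretch of the unit, in each cell type, for positions with at least 100 compared CpGs. Lower panel, share (%) of those CpGs that were members, which was highest at 24 bases before the stretch, at 2.65%.

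The comparison of 4F-iPSCs with C-iPSCs asks whether the loss was equally deep in the 2 kinds of iPSC. The rule did not use this contrast, although it held both levels below that of mESCs. The 4F-iPSCs were lower at CpGs of the runs near Fcgr3 and Pip4p2. In the quasi-binomial model described next, 3 calls of the run near Fcgr3 held whichever of the 4 iPSC libraries was left out, while all 5 of the run near Pip4p2 were lost without 4F-iPSC replicate 1 (limma-based adjusted p from 0.1076 to 0.6322) and 3 of them without 4F-iPSC replicate 2. A member that did not pass the test may still differ. In simulated data the model recovered 16 of 100 differences of 0.3 and 76 of 100 differences of 0.5. All were increases in 4F-iPSCs at CpGs with at least 30 reads in each iPSC type. Decreases, and differences at more thinly read CpGs, were not simulated. The mean over the 257 deeply read members was 25.8% ± 4.9 (SD, n = 2) in 4F-iPSCs and 32.1% ± 5.6 (SD, n = 2) in C-iPSCs, a difference of -6.31 points with an exact two-sided permutation p of 0.667. It was -11.04 points for members in runs (p = 0.33, the smallest that 2 libraries against 2 can give) and -2.80 points for single members (p = 0.667) by the same exact test.

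At single CpGs, a quasi-binomial model with dispersions shrunken by limma and Benjamini-Hochberg adjustment over 1071997 CpGs called 16 of the 574 members tested. Of these 2 were higher in 4F-iPSCs, 0.348% of the members against 1.66% of all CpGs, and 14 were lower, 2.44% against 0.0306%. The rule removed CpGs with high levels in either iPSC type in advance, so nothing is read from these shares. Of the 574, 55 had an unadjusted p under 0.05 in this model, the 16 included. Over all 1071997 CpGs tested, 123556 did, so nothing is read from this count. The model called 4 members without 4F-iPSC replicate 1 and 7 without 4F-iPSC replicate 2, settings with a lone 4F-iPSC library.

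Of the 14 lower CpGs, 5 were in the run near Pip4p2, 4 in the run near Fcgr3, 2 in a run on chromosome 13 near Gm48730, 1 in a run in an intron of Rbm20, a splicing regulator of heart muscle, and 2 stood alone near Dhrs7 and Itgb5. The smallest p-values belonged to the run near Fcgr3. The CpG at 171045152 was at 2.0% in 4F-iPSCs against 47.7% in C-iPSCs, a difference of -45.7 points with a limma-based adjusted p of 1.483e-12. Those at 171045166 and 171045170 differed by -40.9 and -35.2 points, with adjusted p-values of 3.584e-11 and 5.423e-09.

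Both CpGs that were higher in 4F-iPSCs stood alone, and 1 is described. The CpG on chromosome 8 at 46911496, 37302 bp from the start of 1700011L03Rik, had 33.3% of 150 reads in C-iPSCs and 67.8% of 385 in 4F-iPSCs, with a limma-based adjusted p of 0.01217, but only 10 reads in mESCs.

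The promoters of 6 gene lists held 1 member, and at the background share of 0.0537% of compared CpGs lists of this size would hold few or none. Among 72 imprinted genes, 2260 promoter CpGs were compared and 1 was a member. The promoters of 5 pluripotency genes (16 CpGs), 10 fibroblast genes (197), 6 extraembryonic endoderm genes (176), 38 germline genes (646) and 13 methylation enzymes and cofactors (834) held none, so nothing is read from these counts. Mean promoter levels of the fibroblast genes were 3.9% and 4.3% in mESCs, 6.3% and 7.6% in 4F-iPSCs and 4.5% and 6.5% in C-iPSCs, and those of the pluripotency genes lay between 5.3% and 17.8% in all 6 libraries, on few CpGs.

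The imprinted member lay 366 bp from the start of Peg13, a noncoding RNA inside Trappc9 that is expressed from the paternal chromosome and whose promoter carries methylation from the egg. At this CpG, on chromosome 15 at 72810690, the level was 96.0% of 25 reads in mESCs, 63.6% of 44 in 4F-iPSCs and 42.9% of 84 in C-iPSCs. The library levels were 100% and 94.4% in mESCs, 79.2% and 45.0% in 4F-iPSCs and 41.5% and 45.2% in C-iPSCs, so that 4F-iPSC replicate 2 lay with the C-iPSCs and replicate 1 between them and the mESCs. The 17 other compared CpGs of the promoter had medians of 80.2% in mESCs (range 57.3 to 91.4), 70.1% in 4F-iPSCs (57.8 to 90.0) and 56.4% in C-iPSCs (22.8 to 83.0). Of these, 14 were lower than mESCs in both iPSC types and 12 were more than 20 points lower in C-iPSCs, but none was more than 20 points lower in 4F-iPSCs. The member thus stood in a region that was lower throughout in C-iPSCs and lower at most CpGs in 4F-iPSCs.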

How the data were processed

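RRBS libraries were analysed from the per-CpG tables that the authors deposited. The authors aligned reads to mm10 with BSMAP 2.90 (version from the submitters' processing notes), kept uniquely mapped pairs and counted methylated and all reads with MOABS. The deposited counts are whole reads per CpG with both strands joined, and the deposited fraction equals methylated over all reads. No molecular identifiers are described, so intervals and floors (3 counts of the total) cover counting error only.

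Counts of the 2 replicates were summed per cell type. A member had at least 10 summed reads in each type and a difference above 0.2 in both, and differences of exactly 0.2 were left out. Near 0 meant under 0.05 in both iPSC types and partial loss at least 0.1 in both. The members and the gene lists were chosen with earlier results of these data known. Genes were taken from GENCODE M21 and sequences from the RefSeq copy of GRCm38. The contrast of 4F-iPSCs with C-iPSCs used a quasi-binomial model per CpG. Its prior dispersion was fitted with limma 3.58.1 (R 4.3.3) in 20 bins of depth, an addition to the plan, and CpGs with over 2000 reads in the 4 libraries were not tested. The model was tested on simulated data. The named CpGs were the 10 runs with the most members, the 10 single members with the largest smaller difference and at least 20 reads per cell type, members in promoters of listed genes, and up to 3 members per direction with the smallest p for 4F-iPSCs against C-iPSCs. CpGs named from other groups (near 0, promoters, strands, runs of 3 or 4 members) were chosen after their values were seen. A CpG that the rule named and 1 of the runs of 3 members are not reported here. Python 3.11.15, numpy 2.4.6, pandas 2.3.3 and scipy 1.17.1 were used. Alternatives changed the read minimum, the difference, the joining distance, the near-0 limit, the strand, the test and each library in turn.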

Additional observations from a re-analysis of the deposited data

Results flagged for a closer look

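At 4 named CpGs the 2 iPSC types differed from each other beyond the spread of their libraries, so that their distances from mESCs were unequal. In the run near Fcgr3 the 4F-iPSC level lay 45.7, 40.9 and 35.2 points under the C-iPSC level (-45.7, -40.9 and -35.2 points) at chromosome 1 positions 171045152, 171045166 and 171045170. All 3 were called in each of the 11 other settings tried. These used Fisher's exact test, the Cochran-Mantel-Haenszel test or the quasi-binomial model. With at least 20 reads in each cell type, the limma-based adjusted p-values of the quasi-binomial model were 1.906e-12, 4.142e-11 and 6.142e-09. At chromosome 8 position 46911496 the 4F-iPSC level lay 34.5 points above the C-iPSC level, a call kept in 7 of 10 settings with adjusted p-values up to 0.5445. It was lost in the quasi-binomial model without C-iPSC replicate 1 (limma-based adjusted p = 0.08408), without 4F-iPSC replicate 1 (0.1969) and without 4F-iPSC replicate 2 (0.5445). With 2 libraries per cell type no library could be tested as an outlier.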

How the results depend on the processing

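The number of members (577) depended on depth, threshold and single libraries. Raising the limit on the reads of every cell type to 20 and 30 left 331 and 243, and it was 257 with 10 reads in each library, 259 from means of library levels, 112 with a difference above 0.3, 78 above 33.3 points and 62 when every iPSC library lay more than 0.2 below every mESC library. With the replicate block, that is the rule met within each replicate number, it was 99. Leaving out each library in turn gave 321 to 1034 CpGs. The fewest were found without C-iPSC replicate 1, where 279 members were kept, and 1031 and 1034 were found without mESC replicate 1 and without mESC replicate 2, where 297 and 257 members were kept. Of the 127 members in runs, 59 remained in runs when no other compared CpG was allowed between neighbours, and leave-one-out gave 73 to 180, with 73 without C-iPSC replicate 1 and 79 without 4F-iPSC replicate 1. The 16 members near 0 became 6 with at least 20 reads, 80 under 0.1 and 7 under 0.02, and leave-one-out gave 10 to 50, with 10 without C-iPSC replicate 1, 37 without 4F-iPSC replicate 2 and 50 without mESC replicate 1. CpGs found again rose from 4.88% to 17.5% when chosen in replicates 2. The causes of these shifts were not tested.

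The 16 members called between 4F-iPSCs and C-iPSCs became 50 by Fisher's exact test on summed reads and 57 by the Cochran-Mantel-Haenszel test with a replicate block, neither of which models the spread between libraries. Over all CpGs, Fisher's exact test called 153226 higher and 1902 lower in 4F-iPSCs. The blocked test called 163636 higher and 2068 lower, so nothing is read from the member counts. Leave-one-out gave 42 to 58 with Fisher's exact test and, as a setting added after seeing the data in which the lone library was assumed to vary like the other group, 4 to 13 with the quasi-binomial model, with 4 without 4F-iPSC replicate 1 and 7 without 4F-iPSC replicate 2. More called members were lower than higher in 4F-iPSCs in each of these settings. The rule put the same upper limit on both iPSC levels and so left out CpGs high in either type. Nothing is read from the direction, and its cause was not tested. Over all CpGs the main model called 17797 higher and 328 lower in 4F-iPSCs. The mean difference of 4F-iPSCs from C-iPSCs lay between -10.3 and -2.01 points over the alternatives that could change it. The 192 members beside the tandem unit became 77 with at least 30 reads in each cell type, a setting also added after seeing the data. The replicate numbers are not stated to pair the libraries, and the deviations of same-numbered libraries correlated with 0.118 between C-iPSCs and 4F-iPSCs, 0.0434 between C-iPSCs and mESCs and -0.229 between 4F-iPSCs and mESCs over 934415 CpGs, so the block is no main result.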

Other observations

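The X chromosome was outside the rule. Applied there, the rule was met by 38 of 31255 compared CpGs (0.122%), and the opposite pattern by 5516. All lines were male, so each X-linked level comes from a single copy of the chromosome.

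By chromosome, the share of CpGs above 20% in mESCs that were members ran from 0.1% on chromosome 11 to 0.202% on chromosome 6.

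Set against the other CpGs above 20% in mESCs in the same library, the mean member level was 9.0 and 4.36 points higher in the mESC libraries. It was 35.5 and 37.5 points lower in C-iPSCs and 56.5 and 51.0 points lower in 4F-iPSCs. Members were chosen for low iPSC levels, and the other CpGs averaged 68.6% in C-iPSCs against 79.6% in 4F-iPSCs, so these distances are a description.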
